A study of Mus musculus with 6 samples.

Results

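The genes described here are those that encode collagen chains. They were taken as every gene symbol on the array of the form Col, a number, a and a number, with the brightest probe set for each symbol, which gave 44 genes of 22180. The RNA came from articular chondrocytes, the cells that build joint cartilage, of wild-type (WT) ICR mice 5 days old, kept as a primary monolayer culture. One group was left untreated and the other was treated with IL-1β, a proinflammatory cytokine that drives cartilage breakdown, with RNA harvested at 24 h, and each group has 3 arrays labeled as biological replicates 1 to 3. The cultures are bulk populations of cells from young animals, and the labels do not say whether a replicate is 1 animal, a pool or a separate dish, so p-values measure only the spread between these arrays. The methods mention 4 replicates per cell type, while 3 arrays per group were analysed here.

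Collagens are trimers of chains wound into a triple helix. Fibrillar collagens (types I, II, III, V, XI, XXIV and XXVII) form banded fibrils, and those of cartilage are built mainly from type II with type XI as a minor partner that nucleates the fibril. FACIT collagens (types IX, XII, XIV, XVI, XIX, XX and XXII) attach to the surface of such fibrils, with type IX being the one typical of cartilage. Type IV forms the networks of basement membranes, the short-chain types VIII and X form hexagonal lattices, type VI forms beaded filaments around the cell, the transmembrane types span the cell membrane, and the multiplexins XV and XVIII are collagen cores of proteoglycans.

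IL-1β lowered the chains of the cartilage fibril and of type X collagen, and also Col1a2, Col4a1, Col14a1 and Col16a1. The calls of Col1a2 and Col16a1 were lost when certain single arrays were left out, and that of Col4a1 whichever array was left out. Col3a1, Col5a2, Col8a1 and Col18a1 rose, calls that were all lost without untreated replicate 3 or without IL-1β replicate 1. Of the 44 genes, 12 fell, 4 rose and 28 did not pass the test (limma, Benjamini-Hochberg adjusted p under 0.05 over all genes). Among all 22180 genes, 8.88% fell and 8.32% rose by the same test. Beside these shares, compared without a test, 27.3% of the collagen chains fell and 9.09% rose, the latter near the share of all genes. Many genes of the array are dim, and among the 13911 genes above background in at least 1 group the shares were 13.4% lower and 12.7% higher. By that measure 39 of the 44 collagen chains were above background, and the 12 that fell and 4 that rose were all among these 39. The fall was greatest for Col10a1, Col9a3, Col11a2, Col9a2, Col9a1 and Col27a1, the 6 chains with a log2 fold change under -1, and 1.45% of all genes fell past that limit. None rose by as much. The median log2 fold change was -0.11 over the collagen chains and -0.02 over all genes.

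**Figure D1:**
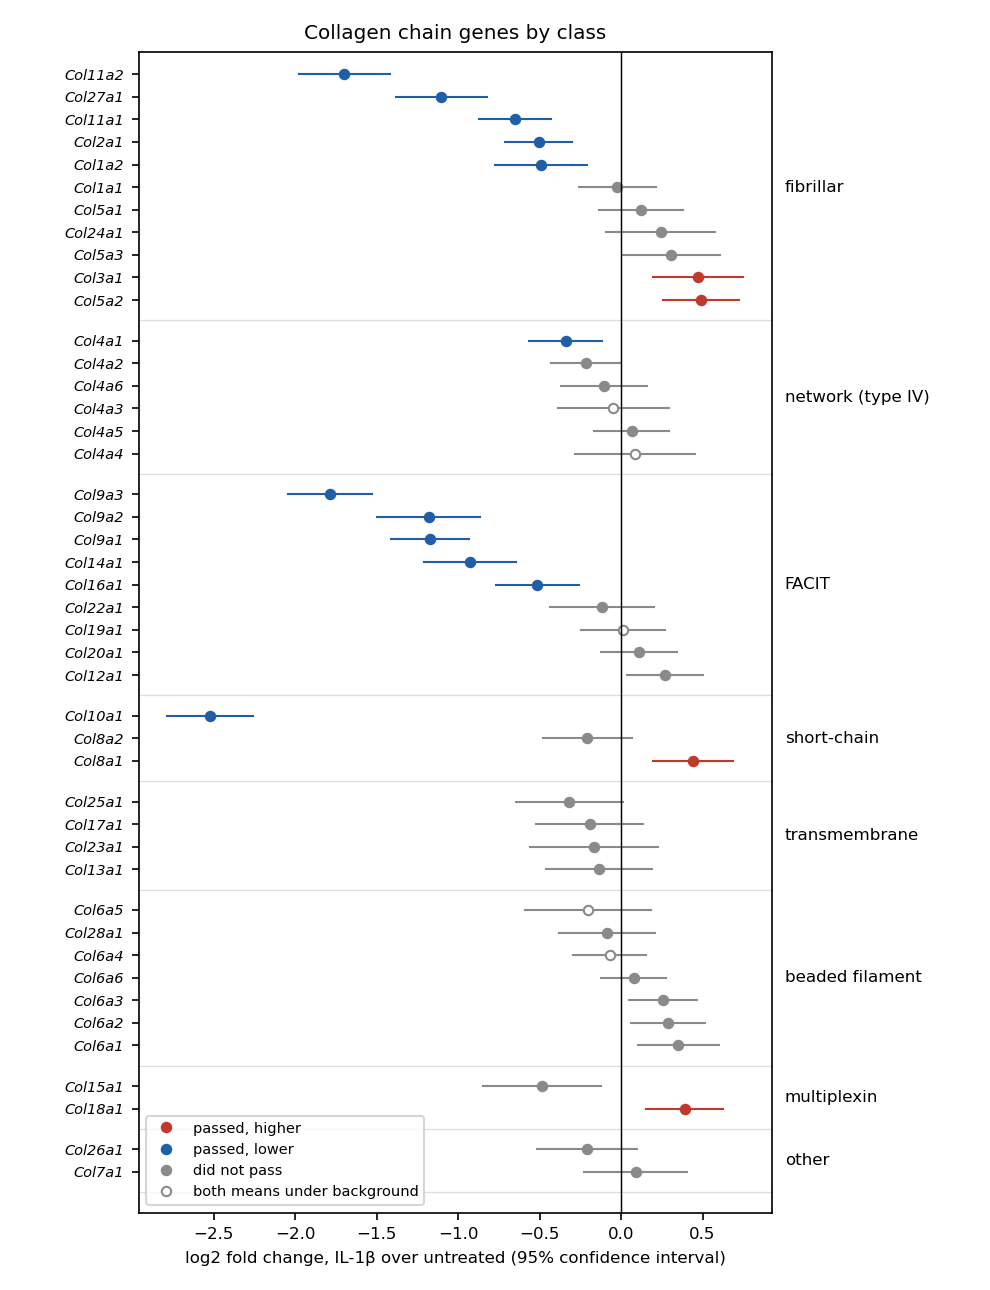
Log2 fold change with IL-1β over untreated cells for each of the 44 collagen chain genes, grouped by class, with lines for the 95% confidence interval from limma (3 arrays per group). The FACIT and fibrillar classes hold 10 of the 12 chains that fell, and no transmembrane or beaded filament chain passed.

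By class, the FACIT collagens had 5 of 9 chains lower, none higher and a median log2 fold change of -0.51. The fibrillar collagens had 5 of 11 lower and 2 higher, with a median of -0.02. One of the 6 type IV chains fell, 1 of 3 short-chain collagens fell and 1 rose, and 1 of 2 multiplexins rose. No chain of the transmembrane class (4), of the beaded filament class (7) or of the remaining pair, Col7a1 and Col26a1, passed in either direction. The arrays of the groups did not overlap for 22 collagen chains, 13 lower and 9 higher with IL-1β, and for 33.0% of all genes. They did overlap for 7503 of the 13911 genes above background in at least 1 group, beside 22 of the 44 collagen chains. These sets differ, since the 44 include 5 chains under background in both groups, whose arrays all overlapped. Both means of Col4a3, Col4a4, Col6a4, Col6a5 and Col19a1 lay under the background level of 4.57, which is the 95th percentile of probe sets of odor, pheromone and taste receptor genes.

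The labeled cell type was checked with 12 chondrocyte genes that encode no collagen, all of them above background. Of these, 11 fell with IL-1β, among them Matn1, Matn3 and Acan, and their summed level on the log2 scale went from 14.88 to 15.01 in untreated arrays to 13.82 to 13.99 in treated ones. The fibroblast and synoviocyte list had 5 of 12 genes higher, including Pdgfra, Lum and Dcn, and 2 lower, Vim (-0.34) and Dpt (-0.54). Its summed level was 13.41 to 13.42 before and 13.67 to 13.76 after treatment, while Tcf21 and Postn lay under background. These lists moved alongside the collagen chains, and their part in the changes was not tested. In bulk RNA, fewer cells of a type and less RNA per cell cannot be told apart. The macrophage list had 1 of 8 genes higher (7.33 to 7.51 and 7.89 to 7.93), the endothelial list 1 of 8 higher (7.13 to 7.39 and 7.21 to 7.36), and in each list 5 genes, with Ptprc, Adgre1 and Cdh5 among them, lay under background. The genes that rose were Cd68 (log2 fold change 1.22, limma adjusted p = 7.19e-05) and Tek (at least 1.08-fold higher, limma adjusted p = 0.0154), whose untreated arrays lay under background, and Kdr was above background in both groups (-0.06). The osteoblast list had 1 of 6 higher and 1 lower (7.57 to 8.05 and 8.04 to 8.44), with 3 of its genes above background. The muscle list had 1 of 8 lower (8.24 to 8.43 and 7.80 to 8.12), with 5 above background. The adipocyte list had 1 of 6 higher, Fabp4 (7.10 to 7.30 and 8.59 to 8.87), with 3 above background. Of these, Plin1 and Pparg did not pass, and Adipoq lay under background.

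**Figure D2:**
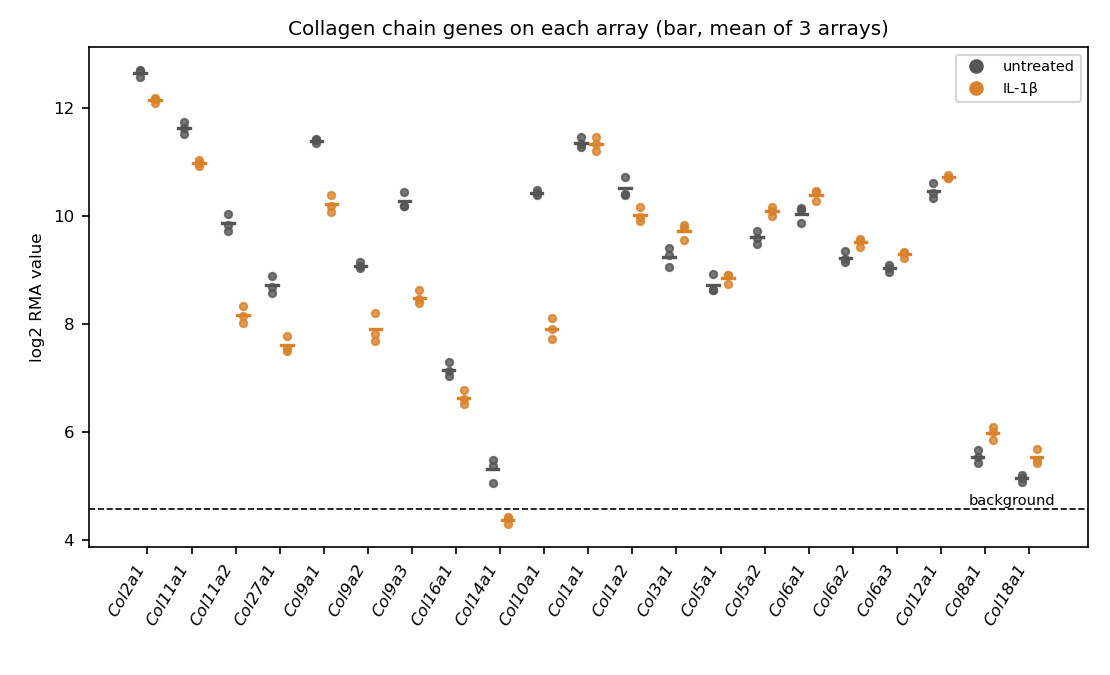
Log2 RMA value on each array for 21 collagen chain genes, with untreated arrays in grey, IL-1β arrays in orange, a bar for the mean of 3 arrays and a dashed line for the background level of 4.57. The arrays of Col10a1, Col11a2, Col27a1 and the type IX chains lie far apart between groups, those of Col1a1 and Col5a1 overlap, and levels of different genes are not comparable with each other.

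Promoters from RefSeq (GRCm38.p6), each covering 250 bases before to 50 after a start site, were found for 35 of the 44 collagen chain genes. Only the first listed window of each gene was used. Its start site lies inside the gene, past its 5′ end, for Col27a1, Col20a1, Col11a2, Col6a5, Col28a1, Col25a1 and several others. For Col11a2 the start site is base 34039138, while the gene begins at base 34038919. Windows are shown for the chain that fell most (Col10a1) and for a chain of type XI and of type IX that fell (Col11a2, Col9a2). Also shown are those of a chain that rose (Col3a1) and of Col4a2, whose window is shared in part with Col4a1. All are written 5′ to 3′, and capitals mark matches on either strand to any of 6 motifs. These were TATAAA for the TATA box, CCAAT for the box of that name, GGGCGG for the GC box, TGANTCA for the AP-1 motif, AACAAT for a SOX motif, and the NF-κB motif.
Col10a1, chr10:34389731-34390030, plus strand: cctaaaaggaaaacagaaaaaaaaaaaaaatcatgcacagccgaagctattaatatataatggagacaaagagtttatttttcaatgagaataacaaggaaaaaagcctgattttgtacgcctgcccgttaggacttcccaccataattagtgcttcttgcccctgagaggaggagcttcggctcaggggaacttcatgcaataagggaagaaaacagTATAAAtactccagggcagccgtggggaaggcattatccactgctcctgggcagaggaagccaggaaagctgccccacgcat
Col11a2, chr17:34038888-34039187, plus strand: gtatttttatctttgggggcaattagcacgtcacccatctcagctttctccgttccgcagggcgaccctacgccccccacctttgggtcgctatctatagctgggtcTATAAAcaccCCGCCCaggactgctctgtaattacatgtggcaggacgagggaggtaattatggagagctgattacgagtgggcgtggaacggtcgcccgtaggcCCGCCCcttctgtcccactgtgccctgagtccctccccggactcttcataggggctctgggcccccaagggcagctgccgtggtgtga
Col9a2, chr4:121039316-121039615, plus strand: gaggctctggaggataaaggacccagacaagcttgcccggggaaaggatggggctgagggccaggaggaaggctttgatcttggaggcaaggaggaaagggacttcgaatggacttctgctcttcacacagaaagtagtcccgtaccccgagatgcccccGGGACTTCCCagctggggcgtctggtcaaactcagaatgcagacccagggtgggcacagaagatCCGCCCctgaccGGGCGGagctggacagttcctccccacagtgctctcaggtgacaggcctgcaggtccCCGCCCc
Col3a1, chr1:45311288-45311587, plus strand: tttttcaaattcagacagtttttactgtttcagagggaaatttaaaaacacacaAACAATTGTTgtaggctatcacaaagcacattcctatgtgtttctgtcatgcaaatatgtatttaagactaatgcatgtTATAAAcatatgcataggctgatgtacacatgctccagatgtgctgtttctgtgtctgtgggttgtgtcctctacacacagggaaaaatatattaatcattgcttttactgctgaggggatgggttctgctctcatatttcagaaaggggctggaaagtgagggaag
Col4a2, chr8:11312555-11312854, plus strand: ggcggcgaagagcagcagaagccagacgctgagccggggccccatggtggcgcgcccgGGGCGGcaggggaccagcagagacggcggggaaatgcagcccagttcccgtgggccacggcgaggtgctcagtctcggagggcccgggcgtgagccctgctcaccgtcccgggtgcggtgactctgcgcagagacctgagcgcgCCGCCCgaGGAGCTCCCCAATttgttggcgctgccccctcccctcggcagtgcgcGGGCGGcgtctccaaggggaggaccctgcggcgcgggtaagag

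In the Col10a1 window the TATA box had its first base at position -32 from the start site, and no other motif searched was matched. Col11a2 held a TATA box at position -143 and GC boxes at positions -133 and -38, counted from a start site inside the gene. Col9a2 held 3 GC boxes and an NF-κB match at position -90. In Col3a1, a palindrome matched the SOX motif on both strands, at positions -196 and -192, so the marked stretch holds 2 matches that overlap. In Col4a2 the CCAAT box overlapped the NF-κB match. The start sites of Col4a1 and Col4a2 lie 21 bases apart on opposite strands, and their windows share 78 bases. Over all 35 promoters, a GC box was found in 22 (62.9%) and in 35.9% of 27025 mouse promoters of the same length. The NF-κB motif was found in 5 (14.3%) and in 8.18% of all promoters, the TATA box in 5 (14.3%) and 14.2%, and the CCAAT box in 12 (34.3%) and 37.9%. The AP-1 and SOX motifs were each found in 1 collagen promoter, and in 7.93% and 10.9% of all promoters. Of the 9 promoters of chains that fell, 7 held a GC box and 2 an NF-κB match, and of the 3 of chains that rose, 2 held a GC box and none an NF-κB match. These matches are of letters only.

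Among the chains of the cartilage fibril, Col2a1 encodes the single chain of type II collagen, the main collagen of cartilage. It read 12.68, 12.71 and 12.58 on the untreated arrays and 12.17, 12.18 and 12.10 on the IL-1β arrays, all on the log2 scale. Every treated array was below every untreated one, and Col2a1 was 1.42-fold lower (log2 fold change -0.51, SE 0.09, limma adjusted p = 0.00464). Col11a1 and Col11a2 encode chains of type XI collagen. Col11a1 read 11.75, 11.52 and 11.63 without and 11.04, 10.94 and 10.98 with IL-1β. The groups were apart, and the fall was 1.57-fold (log2 fold change -0.65, SE 0.10, limma adjusted p = 0.00176). Col11a2 read 10.04, 9.72 and 9.84 without and 8.14, 8.34 and 8.02 with IL-1β. It fell 3.25-fold (log2 fold change -1.70, SE 0.12, limma adjusted p = 3.37e-05), with all treated arrays more than the whole spread of a group below the untreated ones. Col27a1, a fibrillar chain of developing and growth cartilage, read 8.90, 8.57 and 8.69 without and 7.55, 7.78 and 7.50 with treatment. It was 2.15-fold lower (log2 fold change -1.10, SE 0.12, limma adjusted p = 0.000326). The calls of Col2a1, Col11a1, Col11a2 and Col27a1 held in every alternative fit, though Col2a1 and Col11a1 did not reach the limit of 1 on the log2 fold change.

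Type I collagen, the main collagen of bone, tendon and skin, is built from 2 chains of Col1a1 and 1 chain of Col1a2. Col1a1 read 11.46, 11.33 and 11.28 without and 11.46, 11.21 and 11.33 with IL-1β. The groups overlapped, and the log2 fold change of -0.02 had a 95% confidence interval from -0.26 to 0.21 (limma adjusted p = 0.925). Col1a2 read 10.73, 10.39 and 10.42 without and 10.17, 9.91 and 9.97 with IL-1β. It fell 1.41-fold (log2 fold change -0.49, SE 0.12, limma adjusted p = 0.0249), with no overlap of the groups, and its second, dimmer probe set changed by -0.53. The call for Col1a2 was lost without untreated replicate 1 (limma adjusted p = 0.0764), IL-1β replicate 2 (0.0747) or IL-1β replicate 3 (0.0781), without replicate 2 of both groups (0.0590), and by the study's kind of test, a t-test on the same values (0.108).

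Type III collagen, found with type I in distensible tissues, and type V, which sets fibril width, are the fibrillar collagens with chains that rose. Col3a1 read 9.40, 9.06 and 9.27 without and 9.77, 9.56 and 9.83 with IL-1β. All treated arrays were above the untreated ones, and the rise was 1.39-fold (log2 fold change 0.47, SE 0.12, limma adjusted p = 0.0278). Col5a2 read 9.73, 9.60 and 9.48 without and 10.17, 10.00 and 10.10 with IL-1β. It rose 1.40-fold (log2 fold change 0.49, SE 0.10, limma adjusted p = 0.0111), also without overlap. Col3a1 and Col5a2 are neighbors on chromosome 1 in the RefSeq annotation. The call for Col3a1 was lost without untreated replicate 2 (limma adjusted p = 0.0733), untreated replicate 3 (0.0757), IL-1β replicate 1 (0.103) or IL-1β replicate 3 (0.0957), and with arrays centered on their medians (0.0527). That for Col5a2 was lost without untreated replicate 3 (0.0523) or IL-1β replicate 1 (0.0572).

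The other chains of type V did not pass. Col5a1, which is present in most type V trimers, read 8.92, 8.63 and 8.63 without and 8.90, 8.74 and 8.91 with IL-1β, with overlap (log2 fold change 0.12, 95% confidence interval -0.14 to 0.38, limma adjusted p = 0.577). Its dimmer probe set changed by -0.15, the opposite way. Col5a3 read 6.05, 6.27 and 5.85 without and 6.40, 6.49 and 6.20 with IL-1β, where the highest untreated array lay above the lowest treated one (log2 fold change 0.31, limma adjusted p = 0.171). Col24a1, a fibrillar chain of bone, had a log2 fold change of 0.24 (limma adjusted p = 0.347).

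All 3 chains of type IX collagen, the FACIT collagen that decorates type II fibrils, fell. Col9a1 read 11.43, 11.40 and 11.36 without and 10.19, 10.39 and 10.08 with IL-1β, a 2.26-fold fall (log2 fold change -1.17, SE 0.11, limma adjusted p = 0.000109). Col9a2 read 9.04, 9.14 and 9.07 without and 7.82, 8.21 and 7.68 with IL-1β, 2.27-fold lower (log2 fold change -1.18, SE 0.14, limma adjusted p = 0.000465). Col9a3 showed the widest gap of these chains, and its groups, like those of Col9a1 and Col9a2, were far apart. It read 10.44, 10.19 and 10.19 without and 8.45, 8.63 and 8.38 with IL-1β, a 3.45-fold fall (log2 fold change -1.79, SE 0.11, limma adjusted p = 1.65e-05). Replicate 2 was the highest of the IL-1β arrays for each type IX chain. The same was true of 8 of the 12 collagen chains that fell, against 2 each for replicates 1 and 3. This count was not compared with that of all genes that fell. Col9a1 lies beside Col19a1, another FACIT chain, in the annotation, and Col19a1 was under background in both groups.

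Of the other FACIT collagens, 2 fell and 3 above background did not pass. Col14a1, a chain of collagen fibrils in tendon and skin, read 5.48, 5.37 and 5.06 without IL-1β and 4.29, 4.43 and 4.40 with it. All treated arrays lay under the background level, so Col14a1 was at least 1.66-fold lower, the background level standing in for the treated value (limma adjusted p = 0.000939). Col16a1, a minor fibril-associated chain, read 7.29, 7.04 and 7.13 without and 6.61, 6.78 and 6.52 with IL-1β. Its groups did not overlap and it fell 1.43-fold (log2 fold change -0.51, SE 0.11, limma adjusted p = 0.0123), a call lost without IL-1β replicate 1 (0.0532) and by the methods' t-test (0.0598). Col12a1, a FACIT chain of dense connective tissue, read 10.62, 10.33 and 10.42 without and 10.76, 10.70 and 10.71 with IL-1β. All treated arrays of Col12a1 were above the untreated ones, but the difference of 0.27 did not pass (limma adjusted p = 0.123). Among genes with a mean above the median of all genes it was 0.0433. The log2 fold changes of Col20a1 and Col22a1 were 0.11 and -0.12, with overlapping groups.

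Col10a1 encodes type X collagen, the marker of hypertrophic chondrocytes at the calcifying edge of growth cartilage. It read 10.42, 10.38 and 10.49 without and 7.91, 7.71 and 8.10 with IL-1β. The highest treated array lay far below the lowest untreated one, and Col10a1 was 5.75-fold lower (log2 fold change -2.52, SE 0.12, limma adjusted p = 2.91e-06). By absolute log2 fold change it ranked 73 of 22180 genes, the highest rank of any collagen chain. The other short-chain collagen, type VIII, is known from vessels and the cornea. Col8a1 read 5.53, 5.67 and 5.42 without and 6.01, 5.85 and 6.09 with IL-1β, and rose 1.36-fold without overlap (log2 fold change 0.44, SE 0.11, limma adjusted p = 0.0227). The call for Col8a1 was lost without untreated replicate 1 (0.0685), untreated replicate 3 (0.0928), IL-1β replicate 1 (0.0853) or IL-1β replicate 3 (0.0832). Col8a2, its partner chain, had overlapping groups and a log2 fold change of -0.21 (limma adjusted p = 0.321).

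**Figure D3:**
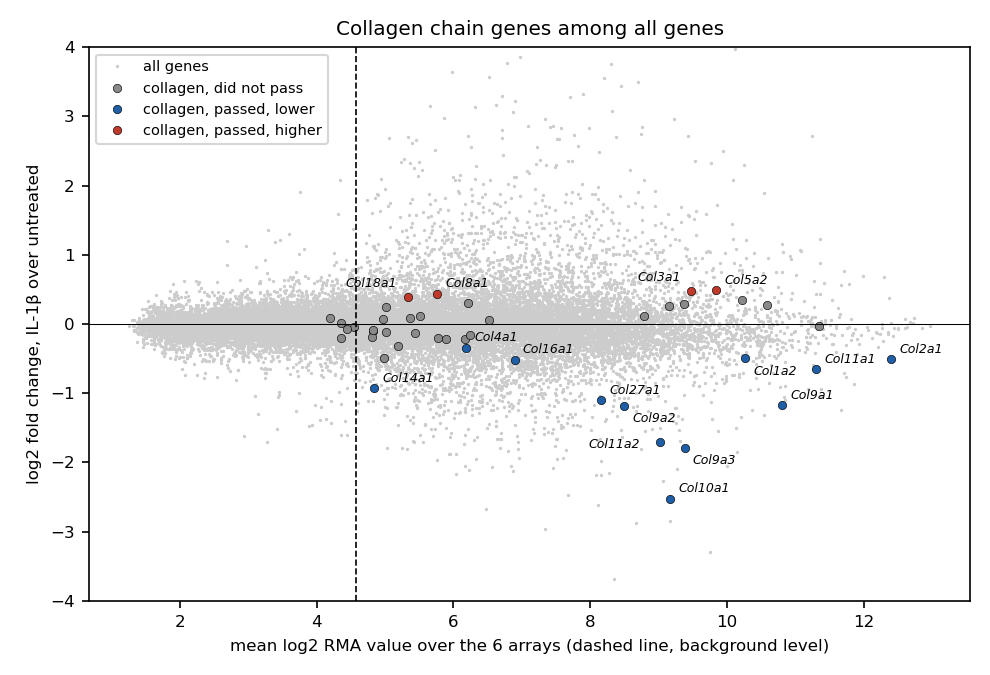
Log2 fold change with IL-1β over untreated cells (vertical axis) against the mean log2 RMA value of the 6 arrays (horizontal axis) for all 22180 genes in grey and the collagen chains as large points, blue where lower, red where higher and grey where the test was not passed. Col10a1 lies at -2.52, Col9a3 at -1.79 and Col11a2 at -1.70, and 21 other genes lie beyond the vertical limits of 4 and are not drawn.

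Of the basement membrane chains of type IV, Col4a1 read 6.28, 6.43 and 6.34 without and 6.03, 5.89 and 6.11 with IL-1β, and fell 1.27-fold (log2 fold change -0.34, SE 0.10, limma adjusted p = 0.0459). The groups did not overlap, but the call did not hold with the replicate number as a block (adjusted p = 0.0582) or without any single array. The limma adjusted p for Col4a1 was 0.0759, 0.111 and 0.118 without untreated replicates 1, 2 and 3, and 0.125, 0.122 and 0.0590 without IL-1β replicates 1, 2 and 3. Col4a2, which joins 2 chains of Col4a1 in the common type IV trimer and is its head-to-head neighbor, was lower on all treated arrays but did not pass (log2 fold change -0.22, limma adjusted p = 0.183). Col4a5 and Col4a6, also head-to-head neighbors, had log2 fold changes of 0.06 and -0.10 with overlapping groups.

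Col6a1, Col6a2 and Col6a3, the main chains of the type VI collagen of the pericellular matrix around chondrocytes, were higher on all treated arrays without passing the test. Col6a1 read 10.15, 9.88 and 10.11 without and 10.44, 10.28 and 10.46 with IL-1β (log2 fold change 0.35, limma adjusted p = 0.0613). Col6a2 read 9.35, 9.14 and 9.20 without and 9.58, 9.55 and 9.43 with IL-1β (log2 fold change 0.29, limma adjusted p = 0.0883). For these chains and for Col6a3 the lowest treated array lay above the highest untreated one. Col6a3 read 9.03, 9.10 and 8.97 without and 9.21, 9.34 and 9.31 with IL-1β (log2 fold change 0.26, limma adjusted p = 0.0996). With the replicate number as a block, Col6a1 passed (limma adjusted p = 0.0304). When genes under background were left out, so that fewer genes were tested, all 3 chains passed (limma adjusted p = 0.0284, 0.0399 and 0.0431). The dimmer probe set of Col6a1 changed by 0.30, whereas 1 probe set that names Col6a1 together with other genes changed by -0.38 and was not used. Col6a6 read 4.97, 4.88 and 4.96 without and 5.04, 5.00 and 5.01 with IL-1β, near background, with a log2 fold change of 0.08 (limma adjusted p = 0.654). Col28a1, a beaded filament chain of nerve, had a log2 fold change of -0.08 with overlap.

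The multiplexin chains lay on opposite sides. Col18a1, the collagen from which endostatin is cut, read 5.20, 5.15 and 5.07 without and 5.69, 5.47 and 5.42 with IL-1β. It rose 1.31-fold without overlap (log2 fold change 0.39, SE 0.10, limma adjusted p = 0.0332). The call for Col18a1 was lost without untreated replicate 1 (0.0646), 2 (0.0639) or 3 (0.119) and without IL-1β replicate 1 (0.139) or 2 (0.0522). Col15a1, its relative in basement membranes of muscle and vessels, had overlapping groups and a log2 fold change of -0.48 that did not pass (limma adjusted p = 0.0751). Col15a1 passed in 7 of 15 alternatives. These were the replicate number as a block (0.0217), leaving out untreated replicate 1 (0.0374) or IL-1β replicate 2 (0.0353), testing only genes above background (0.0415), a second quantile normalization (0.0341), median centering (0.0380) and array weights (0.0115).

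The 4 transmembrane chains had log2 fold changes between -0.32 and -0.13, all with overlapping groups. The lowest was that of Col25a1, a chain made by neurons and muscle (limma adjusted p = 0.199), which passed without IL-1β replicate 2 (0.0358). Col17a1, a chain of the hemidesmosomes of epithelia, was at -0.19, Col23a1 at -0.16 and Col13a1, a chain of cell contacts and the neuromuscular junction, at -0.13. Col7a1, the chain of anchoring fibrils in skin, was at 0.09 and Col26a1 at -0.21, neither passing.

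Whether chains that share a collagen changed by the same amount was compared in 15 pairs. For each pair the difference of log2 values was taken on every array, so that only a change of that difference is read and not the level of one chain against another. The pair Col4a3 and Col4a4 was left out as under background, and 14 were tested with a two-sided exact permutation test, which cannot give a p under 0.1 for 3 against 3 arrays. No pair passed and none could in this design. The arrays of the groups did not overlap for 6 of the 14 pairs, each at this smallest p (0.233 after Benjamini-Hochberg adjustment over the 14 pairs). Of all pairs of genes above background, 50.5% did not overlap, so the count for collagen partners was no higher than that of pairs in general, and the values that follow are a description. Col11a1 minus Col11a2 was 1.70 to 1.81 in untreated arrays and 2.60 to 2.96 with IL-1β, a change of 1.05. Col1a1 minus Col1a2 went from 0.73 to 0.94 without to 1.30 to 1.35 with IL-1β, a change of 0.47. Within type IX, the changes were 0.61 for Col9a1 minus Col9a3 and 0.61 for Col9a2 minus Col9a3. By contrast, Col9a1 minus Col9a2 changed by 0.01 (exact permutation p = 0.9). Col8a1 minus Col8a2 changed by 0.65, and Col5a1 minus Col5a2 by -0.37, or by -0.50 with the mean of all probe sets of a gene.

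For the other 8 pairs the arrays of the groups overlapped. Col2a1 minus Col11a1, which are partners in the cartilage fibril, changed by 0.14 (exact permutation p = 0.3). The 3 pairs of type VI chains changed by 0.03 to 0.10 (exact permutation p = 0.5 to 0.8). Col4a1 minus Col4a2 changed by -0.13 (exact permutation p = 0.5), Col4a5 minus Col4a6 by 0.17 (p = 0.2) and Col5a1 minus Col5a3 by -0.19 (p = 0.4), none of them separable from the spread between arrays in this design.

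**Figure D4:**
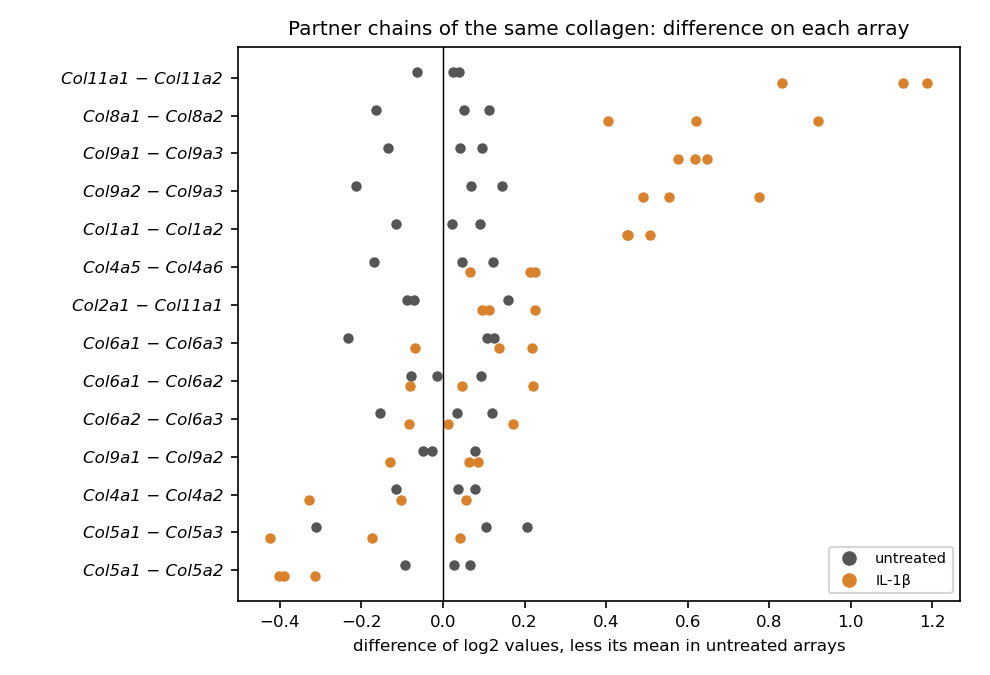
Difference of log2 values of partner chains on each array, less the mean of that difference in untreated arrays, for 14 pairs (untreated arrays in grey, IL-1β arrays in orange). The 6 pairs whose colors do not overlap include Col11a1 and Col11a2, shifted by 1.05, while the type VI pairs and Col9a1 with Col9a2 overlap.

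Genes that act on collagen chains moved in both directions, and their counts stand beside 8.32% higher and 8.88% lower among all genes. Among genes above background in at least 1 group, as most listed genes were, the shares were 12.7% higher and 13.4% lower. Of 20 genes for folding and modification in the endoplasmic reticulum, 8 fell (40.0%) and 4 rose (20.0%, median log2 fold change -0.17). P4ha2, a catalytic subunit of prolyl 4-hydroxylase, rose by 0.96 on the log2 scale, Tmem38b, an ion channel of the endoplasmic reticulum, by 0.72 and the lysyl hydroxylase Plod1 by 0.61. P4ha3, another prolyl 4-hydroxylase subunit, fell by 1.66, the prolyl 3-hydroxylase P3h2 by 1.03 and the galactosyltransferase Colgalt2 by 1.00. Of 17 genes for export, propeptide removal and crosslinking, 5 fell (29.4%) and 1 rose (5.88%, median -0.21). The one that rose was Lox, a lysyl oxidase that crosslinks collagen, by 1.24. Pcolce2, which enhances removal of the C-propeptide, fell by 2.10, and the lysyl oxidase relatives Loxl4 and Loxl3 by 1.37 and 0.95.

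Of 14 genes for collagen cleavage and uptake, 6 rose (42.9%) and 4 fell (28.6%, median -0.02). Mmp13, the main collagenase of type II collagen, read 8.01, 7.93 and 8.11 without and 12.50, 12.39 and 12.55 with IL-1β, 22.1-fold higher and with the groups far apart (log2 fold change 4.46, SE 0.10, limma adjusted p = 3.04e-08). Fap, a membrane protease of activated fibroblasts, rose by 1.40 and the gelatinase Mmp9 by 1.09. The membrane-bound Mmp16 fell by 1.14, the peptidase Prep by 0.46 and the collagen-cleaving cathepsin Ctsk by 0.44. Of 9 genes listed as collagen receptors, 2 rose (22.2%) and 1 fell (11.1%, median 0.13), the latter near the share of all genes. Lrp1, a general endocytic receptor, rose by 0.78 and the integrin subunit Itga11 by 0.52, while Itga2, the α2 integrin subunit, fell by 1.66. Of 18 transcription factors known to act on collagen genes, 4 rose (22.2%) and 6 fell (33.3%, median 0.02). Runx2 was on this list but was not among the genes analysed. Cebpb rose by 1.63, Smad3 by 0.48 and Trps1 by 0.44. Mef2c, a factor of chondrocyte hypertrophy, fell by 0.79, and Sox6 and Sox9, which drive Col2a1 in cartilage, by 0.64 and 0.60. Each of these changes passed by limma, and single arrays decided 5 of them. The call was lost for Mmp9 without untreated replicate 1 (adjusted p = 0.0620) or 3 (0.0593), for Itga11 without untreated replicate 3 (0.0578) or IL-1β replicate 1 (0.0581) and for Smad3 without untreated replicate 1 (0.0541) or IL-1β replicate 3 (0.0548). It was lost for Trps1 without untreated replicate 2 (0.0540) or 3 (0.0693) or IL-1β replicate 3 (0.0721). For Ctsk it was lost without any array but untreated replicate 3 (0.0790 to 0.139). By the methods' t-test, these 5 calls and that of Tmem38b were also lost (adjusted p = 0.0549 to 0.155).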

How the data were processed

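RNA of 3 untreated and 3 IL-1β-treated cultures was measured on Affymetrix mouse gene arrays. RMA was run by the authors (background correction, quantile normalization and 1 summary per probe set), and the deposited table holds log2 RMA values, 0.909 to 13.04 over 41345 probe sets, used as deposited. RMA makes the arrays alike, so a shift shared by most genes would not be seen. Array medians were 4.66 to 4.73, arrays correlated at 0.981 to 0.990 within and 0.965 to 0.977 between groups, and the number of arrays limits the precision.

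The platform's gene table named 1 symbol for 23521 probe sets and several for 1820 (left out), and 16004 were not listed. Symbols of 23328 were found or updated by Entrez ID in RefSeq GRCm38.p6. The brightest probe set (mean of 6 arrays) stood for each gene, and 3 collagen genes had more than 1. Col21a1 was not analysed here. Members and gene lists were chosen with earlier results of these data known.

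A linear model of the 2 groups was fitted with limma 3.58.1 (R 4.3.3, lmFit with eBayes, tested on simulated data), with Benjamini-Hochberg adjustment over 22180 genes and no filter on dim probe sets. Passed means an adjusted p under 0.05. The background level was 4.57, from 1438 receptor probe sets, and 8269 genes had both means under it. Values on each array were printed for types I, II, III, V, VI, IX, X and XI where above background, and for up to 3 passed chains per direction of each other class. In other lists, up to 3 genes per direction were named by fold change. The listed genes Plod3, Fkbp10, Adamts2, Loxl2, Itga10, Runx2, Bglap2 and Spp1 were not among the genes analysed. Values on each array of Col12a1, Col6a6 and Mmp13, and the genes named for cell type lists, were chosen after their values were seen.

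To check pairing, each array's deviation from its group mean was correlated over genes with that of the like-numbered array of the other group, giving 0.101, 0.379 and 0.189 for numbers 1, 2 and 3, each over the 0.1 taken as pairing. Crossed, untreated 1 with IL-1β 3 gave 0.226 and untreated 3 with IL-1β 1 gave 0.0116. The numbers come from the labels, which do not say what they stand for. The study's methods used a t-test with a limit on fold change and no pairing. Alternatives were the replicate block, leaving out each array, filters on dim genes, other probe set rules and scalings, other variance priors, array weights and the methods' t-test. Leaving out replicate 2 of both groups was chosen after seeing the data.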

Additional observations from a re-analysis of the deposited data

How the results depend on the processing

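The count of collagen chains that fell, 12, stayed between 9 and 14 in all alternatives but the limit of 1 on the log2 fold change, which left 6. It was 10 to 12 when single arrays were left out. The count that rose, 4, was less stable. It was 0 to 3 when single arrays were left out (0 without untreated replicate 3 or IL-1β replicate 1), 7 among genes above background, 8 among genes above the median of all genes, 8 with a trended robust variance prior, 8 with array weights, 1 by the methods' t-test and 0 with the limit of 1. With the replicate block, 5 rose and 12 fell, 15 of the 16 calls held, and the call changed for no chain other than Col4a1, Col6a1 and Col15a1. Col2a1, Col11a1, Col11a2, Col27a1, Col9a1, Col9a2, Col9a3, Col10a1 and Col14a1 passed in every alternative fit that tested them, Col14a1 not being among genes above the median, and of these Col2a1, Col11a1 and Col14a1 did not reach the limit of 1. By the methods' t-test Col1a2 (adjusted p = 0.108), Col3a1 (0.111), Col4a1 (0.0713), Col16a1 (0.0598), Col8a1 (0.0731) and Col18a1 (0.0774) lost their calls, and without replicate 2 of both groups Col1a2 (0.0590), Col4a1 (0.177) and Col18a1 (0.0733) did. Of chains that did not pass, Col6a1 passed in 6 of 16 alternatives, Col6a2 in 4, Col6a3 and Col12a1 in 3, Col25a1 in 2 and Col5a3 in 1. Over 686 pairs of a chain and an alternative, 603 kept direction and call, 37 lost the call, 26 gained one and 20 changed sign. Sign changes were of chains that did not pass. With array weights Col1a1 was 0.073, Col23a1 0.070 and Col4a4 -0.040, with the mean of probe sets Col5a1 was -0.012, and with median centering Col19a1 was -0.0068. Without replicate 2 of both groups, Col1a1 was 0.024, Col4a3 0.070, Col4a6 0.036 and Col23a1 0.016. Leaving out single arrays gave -0.089 to 0.039 for Col1a1, -0.16 to 0.12 for Col4a3, -0.058 to 0.19 for Col4a4, -0.19 to 0.0075 for Col4a6, -0.082 to 0.11 for Col19a1, -0.29 to 0.0047 for Col23a1, -0.19 to 0.055 for Col28a1 and -0.035 to 0.23 for Col7a1. The cause was not tested, save that filters test fewer genes and left-out arrays leave fewer samples. Of the other lists, leaving out single arrays moved the cleavage and uptake genes to 4 to 6 higher and 2 to 3 lower and the transcription factors to 2 to 4 higher and 3 to 5 lower. Dim chains near background limit what can be measured.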
